A study of Sus scrofa with 8 samples.

Results

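MicroRNA (miRNA) genes of the pig genome were examined for nearby peaks of 2 histone marks and of the chromatin protein CTCF in pig embryonic fibroblasts (PEFs). Members were all genes that the RefSeq annotation of the Sscrofa11.1 assembly gives the biotype miRNA and places on chromosomes 1 to 18 or X, which holds for 307 of the 315 annotated miRNA genes. Each annotated gene is a hairpin of 54 to 110 bp, with a median of 80 bp. Of the 307 members, 176 lay inside another annotated gene (intragenic) and 131 did not (intergenic). Fetuses of the Large White breed, 35 days old, were the source of the cells, which were cultured for 24 h and received no treatment. ChIP-seq, which sequences the DNA that an antibody pulls down with its target, was done for H3K4me3, H3K27ac and CTCF with 2 replicates each, and the 6 peak lists of these libraries were analysed. The labels do not say whether the replicates came from separate cultures or fetuses, so the spread between them may be technical.

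A miRNA is cut from a hairpin within a longer primary transcript, first in the nucleus by Drosha and DGCR8 and then in the cytoplasm by Dicer. The mature strand of about 22 bases guides an Argonaute protein to messenger RNAs, mainly through pairing of its bases 2 to 8, the seed. A hairpin inside a host gene can be carried by the host transcript, whereas an intergenic hairpin needs a transcript of its own, whose start is often missing from annotations. H3K4me3 marks promoters, H3K27ac marks active promoters and enhancers, and CTCF binds DNA at insulators and loop anchors. A peak near a hairpin therefore describes the chromatin there and does not measure the miRNA itself.

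All 307 members had at least 1 annotated mature sequence, and the 385 mature sequences, read from the Sscrofa11.1 genome and written as RNA, held 357 different sequences and 296 different seeds. The following are shown because their loci carry the contrasts described below, and capitals mark the seed. The first set comes from a pair of related clusters that share seeds, the miR-17 cluster at chr11:60734656-60735437 and the miR-106a cluster at chrX:110113552-110114468.
miR-17-5p: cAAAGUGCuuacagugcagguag
miR-20a: uAAAGUGCuuauagugcaggua
miR-106a: aAAAGUGCuuacagugcagguagc
miR-20b: cAAAGUGCucacagugcagguag
miR-19a: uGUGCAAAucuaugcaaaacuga
miR-19b: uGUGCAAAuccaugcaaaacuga
miR-92a: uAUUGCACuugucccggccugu
miR-363: aAUUGCACgguauccaucuguaa

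The second set holds miRNAs that are known from fibroblasts and other mesenchymal cells and that had strong H3K27ac peaks. Their mature strands lie at chr12:36065284-36065305 (plus strand) for miR-21, chr9:114533828-114533850 (minus strand) for 1 copy of miR-199a-5p, chr9:114528011-114528031 (minus strand) for miR-214, chr9:49157952-49157973 (minus strand) for miR-100 and chr18:18040083-18040105 (plus strand) for miR-29a. The hairpins of miR-21, miR-100 and miR-29a were intergenic, and those of miR-199a and miR-214 lay in an intron of DNM3 on the opposite strand.
miR-21: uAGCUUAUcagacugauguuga
miR-199a-5p: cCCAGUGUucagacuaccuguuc
miR-214: aCAGCAGGcacagacaggcag
miR-100: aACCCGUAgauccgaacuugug
miR-29a: cUAGCACCaucugaaaucgguua

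The third set holds miRNAs of neural and sensory cells whose loci had H3K4me3 with little or no H3K27ac. It consists of miR-9 (chr4:93660437-93660459, plus strand, and chr2:96076401-96076423, minus strand), miR-124a (chr4:69968880-69968900 and chr14:13201437-13201457, both minus strand), miR-137 (chr4:119794042-119794064, plus strand) and the run of miR-183, miR-96 and miR-182 (chr18:18982269-18986913, plus strand). The second copy of miR-9 and all copies of the others were intergenic, and the first copy of miR-9 lay in an intron of the lncRNA gene LOC106510131.
miR-9: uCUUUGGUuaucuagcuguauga
miR-124a: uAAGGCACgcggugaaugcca
miR-137: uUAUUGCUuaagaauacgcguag
miR-183: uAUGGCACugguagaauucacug
miR-96: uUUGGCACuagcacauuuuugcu
miR-182: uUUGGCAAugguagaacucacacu

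The last set holds a liver miRNA at chr1:162329824-162329846 (minus strand) and a skeletal muscle miRNA at chr7:45976342-45976363 (plus strand), both intergenic and both without a histone peak in any library.
miR-122: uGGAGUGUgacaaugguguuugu
miR-206: uGGAAUGUaaggaaguguguga

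The 6 lists held between 37495 and 80531 peaks on these chromosomes. The lists give no read counts, so the depth behind a peak is unknown here, and each value below is a share of members or the authors' fold enrichment over the control. Checked at the transcription start site (TSS, the annotated 5′ end of the gene), fibroblast marker genes had H3K4me3 within 1 kb in both replicates for 11 of 12 (not SPARC) and H3K27ac for 12 of 12. The epithelial markers had H3K4me3 at 4 of 4 and H3K27ac at 0 of 4, and the endothelial ones had neither mark at any of 3. H3K4me3 was at 3 of 4 muscle, 3 of 3 annotated neural, 0 of 3 blood and 1 of 3 liver markers. H3K27ac was at 2 of 4 muscle, 1 of 3 annotated neural, 1 of 3 blood and 1 of 3 liver markers. Over all protein-coding and lncRNA genes, the shares were 60.6% for H3K4me3 and 54.4% for H3K27ac.

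A member was counted as having a peak when at least 1 bp of a peak lay within 5 kb of the hairpin. Intergenic miRNA genes had H3K4me3 more often than intragenic ones. Of 131 intergenic members, 60.3% had an H3K4me3 peak in replicate 1 and 61.1% in replicate 2 (60.7% ± 0.54, SD, n = 2), against 35.8% and 36.4% of 176 intragenic members (36.1% ± 0.402). CTCF peaks were near 37.4% and 41.2% of intergenic (39.3% ± 2.7) and 24.4% and 26.7% of intragenic members (25.6% ± 1.61). H3K27ac peaks were near 54.2% and 63.4% of intergenic (58.8% ± 6.48) and 49.4% and 48.9% of intragenic members (49.1% ± 0.402). The difference between the classes, intragenic minus intergenic, was −24.5 and −24.7 percentage points for H3K4me3, −13 and −14.5 for CTCF and −4.77 and −14.5 for H3K27ac. Replicates of the classes did not overlap for any of the 3, but the H3K27ac difference varied most between replicates. With a window of 1 kb the CTCF difference turned to 0.889 percentage points. Among the 83 members with a number above 4000 in their symbol, a split chosen after the values were seen, the differences turned to 2.34 for H3K4me3, 11.6 for H3K27ac and 0.06 for CTCF, so the direction was that of the other members, with −34, −17 and −18.6. With 2 replicates for each antibody no test was run, and differences are read against the spread between replicates. That spread does not cover the variation among genes or runs within a class.

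These shares were set beside the genome cut into windows of the same length, 10080 bp. Of all windows, 14.6% had an H3K4me3 peak in both replicates, 23.4% an H3K27ac peak and 15% a CTCF peak. Windows centred in a gene had them in 16.5%, 27.6% and 15.8% of cases, against 35.2%, 47.2% and 23.3% of intragenic miRNA genes by the same count. Windows centred outside genes had them in 12.3%, 17.9% and 14.1% of cases, against 57.3%, 53.4% and 37.4% of intergenic miRNA genes. All 6 shares of miRNA genes thus lay above those of the matching windows, and the H3K4me3 share of the intergenic members lay farthest above.

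The TSS of another gene lay within 5 kb of 22 intergenic members, and H3K4me3 was near 84.1% ± 3.21 of these. Windows outside genes that held a TSS had a mean of 54.7%. The 109 intergenic members with no annotated TSS in the window still had H3K4me3 in 55% and 56.9% (56% ± 1.3), H3K27ac in 49.5% and 59.6% (54.6% ± 7.14) and CTCF in 32.1% and 36.7% (34.4% ± 3.24). Windows outside genes with no TSS had means of 10.2%, 16.5% and 13.8%. The same held nearer to genes: of the 69 such members whose nearest TSS was within 50 kb, 64.5% ± 3.07 had H3K4me3, against 15.1% ± 1.52 of windows placed in the same way. Without a TSS in the window, intragenic members came closer to their background in percentage points. Their shares were 25.7% ± 0.512 for H3K4me3, 40.9% ± 0.512 for H3K27ac and 19.6% ± 0 for CTCF (n = 138 members), against 13.6%, 26.7% and 15.5% of windows. The shares of windows were lower as well, since all windows centred in genes had means of 18.9%, 30.3% and 17.4%.

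**Figure D1:**
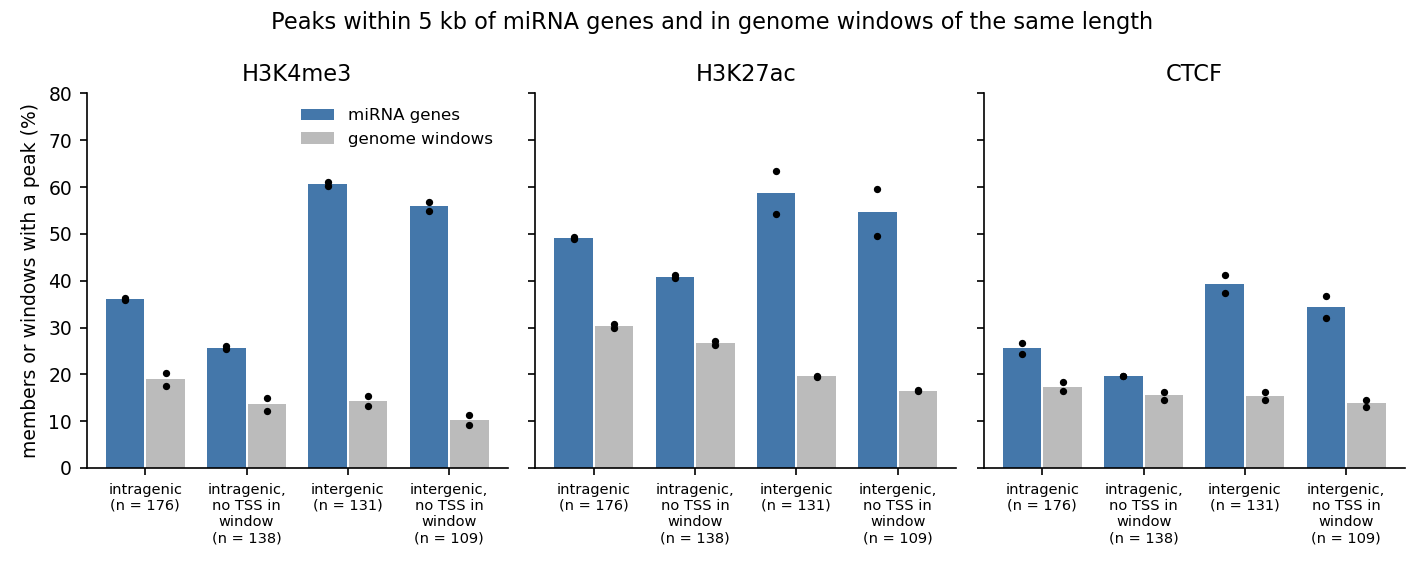
Share of miRNA genes with a peak within 5 kb (blue) and of genome windows of the same length (grey), in percent, for H3K4me3, H3K27ac and CTCF; bars are means of the replicates, points are the 2 replicates, and n is the number of miRNA genes. For H3K4me3 the intergenic members with no TSS in the window stand at 55% and 56.9%, against 25.4% and 26.1% of the intragenic ones.

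Set beside other gene classes, the intergenic members without a TSS in the window had H3K4me3 in both replicates (52.3%) more often than the 5′ ends of 5399 lncRNA genes (40.8%) and less often than those of 19487 protein-coding genes (74.7%). Transfer RNA genes, another class of short genes, had it in 63.9% of the 319 that lay away from the TSS of another gene. Members of 1 cluster share their peaks. With 1 miRNA gene for each run of members closer than 10 kb, the H3K4me3 shares were 55.7% ± 0.737 of 96 intergenic and 35.8% ± 0.456 of intragenic members. These 96 include members near the TSS of another gene. For the intergenic members without a TSS in the window, 76 with 1 per run, this share was not taken.

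H3K4me3 summits near intergenic members lay mostly on the upstream side of the hairpin, the side on which a primary transcript starts. Within 5 kb, 66 summits were upstream and 28 downstream in replicate 1, and 58 and 30 in replicate 2, so that 70.2% and 65.9% were upstream. With 1 member per run the counts were 46 and 25, and 40 and 25. CTCF summits showed no such side, with 26 upstream and 30 downstream in replicate 1 and 34 and 33 in replicate 2. H3K27ac summits near intergenic members were 51.2% upstream in replicate 1 (42 against 40) and 66.4% in replicate 2 (71 against 36), so the size of the excess differed between replicates. Near intragenic members, 53.2% and 60% of H3K4me3 summits were upstream. The nearest H3K4me3 summit was a median of 4277 and 4401 bp from intergenic hairpins and 11379 and 10718 bp from intragenic ones.

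**Figure D2:**
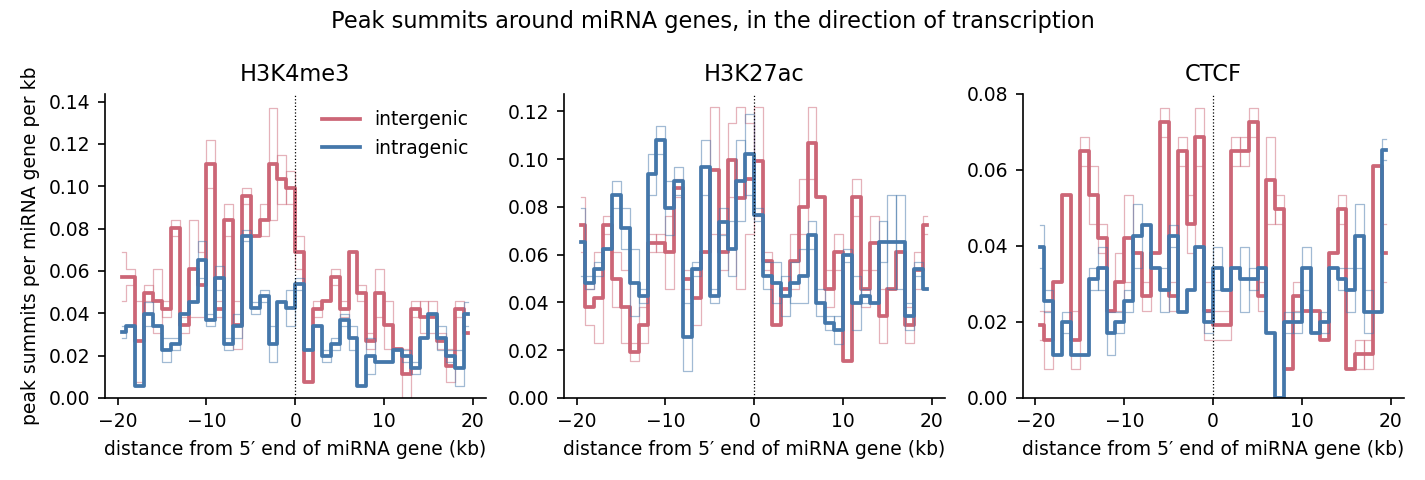
Peak summits per miRNA gene in bins of 1 kb (vertical axis) against the distance from the 5′ end of the miRNA gene in its direction of transcription (horizontal axis, kb), for intergenic (red) and intragenic (blue) members; thick lines are means and thin lines the 2 replicates. The intergenic H3K4me3 line is highest on the left, where 66 and 58 summits lay within 5 kb upstream, against 28 and 30 downstream.

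Combining the marks, 57 of the 307 members had peaks of all 3 in both replicates and 51 had H3K4me3 and H3K27ac without CTCF. No peak of any kind in any library was found near 98 members, of which 69 were intragenic (39.2%) and 29 intergenic (22.1%). The hairpin itself lay under an H3K4me3 peak in both replicates for 67 members, under an H3K27ac peak for 70 and under a CTCF peak for 7. Neither these overlaps nor the combinations were counted over genome windows, so they have no baseline. H3K4me3 was near 44.6% of all members in both replicates, and 18 of these had no H3K27ac peak in either replicate. H3K27ac was near 49.8%, and 34 of these had no H3K4me3 peak in either replicate, 26 intragenic and 8 intergenic.

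The 10 members under the strongest H3K4me3 peaks included both kinds. MIR130B and MIR574 lay in host genes, 1188 and 330 bp from the nearest TSS, and MIR199A-2 lay in DNM2 at 18291 bp from the nearest TSS. MIR130B had fold enrichments of 80.7 and 30.7 in replicates 1 and 2, MIR199A-2 had 78.9 and 31.1, and MIR574 had 67.1 and 32. Fold enrichment was higher in replicate 1 for all 10, and members were ranked by the mean of the replicates. Of the 7 intergenic members, MIR210, the hypoxia miRNA, had 77 and 29.3 at 5190 bp from the nearest annotated TSS, and MIR148A had 70.2 and 27.6 with the nearest TSS at 98110 bp. MIR19A and MIR19B-1 shared 1 peak with 56.8 and 40.3. MIR219A (79.3 and 31.4), MIR196A-2 (69.2 and 31.9) and MIR9796 (62.4 and 35.3) were the ones with an annotated TSS in the window. The strongest H3K4me3 peak within 5 kb of a hairpin, by the mean of the replicates, was near MIR9796, with 80.6 and 47.6, followed by that near MIR130A, with 88.4 and 33.3. In replicate 1 alone their order is the reverse.

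The strongest H3K27ac peaks that reached within 5 kb of a hairpin were those of miRNA genes known from mesenchymal cells. MIR199A-2, at chr2:69558051-69558130 in an intron of DNM2 on the opposite strand, had 49.3 and 46.4. MIR199A-1 and MIR214, which lie in an intron of DNM3 on the opposite strand, shared a peak of 48.2 and 35.7. MIR100 and MIRLET7A-1, intergenic on chromosome 9, shared one of 42.5 and 45.8. For these 5 members the nearest annotated TSS was at least 18291 bp away. Not all of the summits lay in the window. The nearest H3K27ac summit was 13264 and 13206 bp from MIR100 in replicates 1 and 2, and 7941 and 7883 bp from MIRLET7A-1. For MIR214 it was 5182 and 5614 bp upstream.

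Host genes of intragenic miRNAs had H3K4me3 at their own TSS more often than genes in general. An H3K4me3 peak lay within 1 kb of the host TSS for 139 of 176 members (79% in both replicates), and an H3K27ac peak for 123 (69.9%). Across all 24886 protein-coding and lncRNA genes, 60.6% had H3K4me3 and 54.4% H3K27ac at the TSS in both replicates. CTCF was at the host TSS of 18.8% and 27.3% of members in replicates 1 and 2 (18.8% in both), against 16.3% of all genes. Hosts that are lncRNA genes had H3K4me3 for 62.5% of 24 members, and protein-coding hosts for 81.6% of the others. No baseline by gene class was taken within 1 kb. Within 5 kb, the mean H3K4me3 shares were 83.8% for host TSSs, 75.7% for all protein-coding genes and 43.4% for all lncRNA genes.

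Most hairpins were far from that start, with a median of 37907 bp and a highest distance of 826114 bp, and 169 of 176 lay in an intron. The host TSS was in the window of 30 members, and 90% of these had H3K4me3 and 86.7% ± 0 H3K27ac. Genome windows centred in genes and holding a TSS had means of 63.5% and 60.4%. For 114 members the host TSS had H3K4me3 but lay outside the window. Of them, 31 (27.2%) also had an H3K4me3 peak within 5 kb, 48 (42.1%) an H3K27ac peak and 20 (17.5%) a CTCF peak. Such a peak can be that of the host TSS reaching into the window. MIRLET7G, MIR15B, MIR16-1, MIR451 and MIR144 had the same H3K4me3 fold enrichment in the window as at the host TSS. Where the host TSS lay outside the window and had no H3K4me3, 4 of 32 (12.5%) had H3K4me3 near the hairpin, 9 (28.1%) H3K27ac and 7 (21.9%) CTCF. Of windows centred in genes and without a TSS, 23.9% had H3K27ac and 14% CTCF in both replicates, and 13137 of 118722 had H3K4me3 in both.

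**Figure D3:**
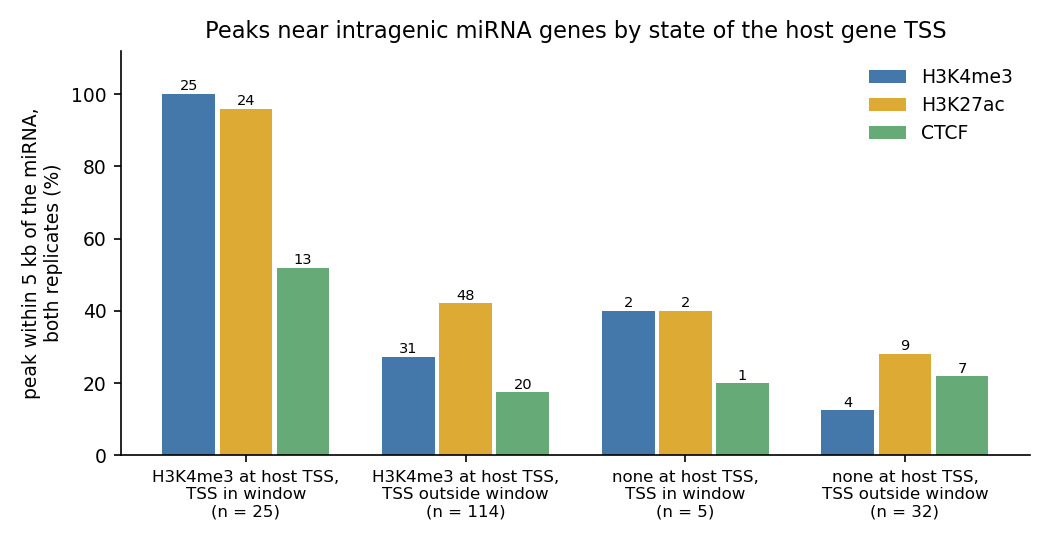
Percent of intragenic miRNA genes with a peak within 5 kb in both replicates (vertical axis), by whether the host TSS had H3K4me3 and whether it lay in the window; numbers over the bars count the members. Where a host TSS with H3K4me3 lay outside the window, 31 of 114 members had H3K4me3 near the hairpin, in some cases the host peak itself. Where a host TSS outside the window had no H3K4me3, 4 of 32 did.

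Those 4 members were MIR125B-1, MIR99A, MIRLET7C and MIR335. MIR125B-1, at chr9:49109435-49109514 in an intron of LOC106504205, had H3K4me3 of 33.9 and 39.4, H3K27ac of 34.6 and 38.8 and CTCF of 13.9 and 18.3. The TSS of LOC106504205 had H3K27ac of 5.15 and 4.39. MIR99A and MIRLET7C, which lie 524903 and 525629 bp from the annotated start of LOC106508546, shared H3K4me3 of 11.6 and 25.7 and H3K27ac of 22.6 and 18.9. MIR335 lies in the imprinted gene MEST, and the peak in its window had H3K4me3 of 33.8 and 18.7 and CTCF of 28.6 and 33.9. For MEST, no peak of the 3 kinds lay within 1 kb of the annotated start in either replicate. A further pair, MIR7143 and MIR1306, had H3K4me3 in the window, and the host TSS, also in the window, had no H3K4me3 within 1 kb. MIR1306 lies in an exon of DGCR8, the partner of Drosha, 406 bp from the annotated start, and had H3K4me3 of 62.3 and 26.7. The TSS of DGCR8 had H3K27ac of 12.9 and 16.2. With the start of any annotated transcript in place of the gene's 5′ end, 87.5% of members had a host with H3K4me3.

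Members on the strand opposite to their host had H3K4me3 in 50% ± 1.91 of 37 cases, against 32.4% ± 0 of 139 on the same strand. H3K27ac was near 63.5% ± 1.91 and 45.3% ± 1.02, and CTCF near 24.3% ± 0 and 25.9% ± 2.03. The group on the opposite strand includes all 3 genes of miR-199, which lie in introns of DNM1, DNM2 and DNM3. MIR199B in DNM1 had H3K4me3 of 30.3 and 12 and H3K27ac of 24.4 and 28.7. MIR143 and MIR145, which are abundant in smooth muscle and fibroblasts, lie in an intron of IL17B on the opposite strand and had H3K4me3 of 32.1 and 12.9 and H3K27ac of 28 and 34.3, at a peak shared with the TSS of IL17B.

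Of the list of miRNAs known from fibroblasts and other mesenchymal or dividing cells, 73 genes were members. H3K27ac was near 58 of them in both replicates (79.5%), H3K4me3 near 47 (64.4%) and CTCF near 29 (39.7%), and 8 had no peak in any library. Across all members the shares in both replicates were 49.8%, 44.6% and 29.3%. MIR21, which is induced by growth factors and inflammation, had H3K4me3 of 32.1 and 26.2, H3K27ac of 37.7 and 31.7, and a CTCF peak of 3.31 in replicate 2 and none in replicate 1. MIR23A, MIR27A and MIR24-1, processed from a single transcript, shared peaks of all 3, with H3K4me3 of 56.1 and 21.2, H3K27ac of 29.5 and 32.3 and CTCF of 40 and 39.2. MIR155, known from immune cells, had H3K4me3 of 7.81 and 12.8 and H3K27ac in both replicates.

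In 12 of the 73, H3K27ac was present in both replicates with no H3K4me3 in either. Among them were MIR29A and MIR29B-1, which target collagen transcripts and had H3K27ac of 37.7 and 41.8, and MIR222, which had 19.4 and 15.1. MIR221, its neighbour, had 19.4 and 7.63. MIR23B, MIR27B and MIR24-2 had 8.35 and 11.9, in an intron of C10H9orf3 whose TSS had H3K4me3 of 61.7 and 26.6. The TSS of another gene lay in their windows. The 8 without a peak included MIR30A and MIR30C-2 in LOC102157778 and MIR30C-1 and MIR30E in NFYC. The TSS of NFYC had H3K4me3 of 59.6 and 28.4 and that of LOC102157778 44.5 and 25.

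Lists of miRNAs known from other cells held 36 members. H3K4me3 was near 18 of these in both replicates, H3K27ac near 9 and CTCF near 14. Both histone marks were found in both replicates near 7 of 36, against 42 of 73 on the fibroblast list. Every member of a run counts here although such members share peaks, as the 6 of the miR-17 cluster do. The lists were also chosen with earlier results of these data known, so this contrast is descriptive. Of the 18 with H3K4me3, 8 had no H3K27ac peak in either replicate, against 1 of 47 on the fibroblast list, MIR196A-1.

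Neural miRNAs made up 6 of those 8. MIR9-2 had H3K4me3 of 28.5 and 28.2, MIR9-1 had 23.1 and 15.5 and MIR9-3 had 41.2 and 22.4, none of them with an H3K27ac peak in any library. All 3 carry the seed of miR-9, which is abundant in neural progenitors. MIR9-3 had the TSS of another gene in its window. MIR124A-2 had H3K4me3 of 22.3 and 12.8 and MIR124A-1 had 6.01 and 4.98, and MIR137 had 25.5 and 18.7, again with no H3K27ac. The other 2 of the 8, MIR451 and MIR144 of the red cell lineage, lie in an intron of ERAL1 on the opposite strand, and the H3K4me3 peak of 65.2 and 29.5 in their window had the same fold enrichment as the peak at the TSS of ERAL1. MIR129A and MIR219A were the neural members with both marks, and MIR219A lay 668 bp from the TSS of RING1.

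The sensory run of MIR183, MIR96 and MIR182 had H3K4me3 in both replicates (36.3 and 17.5 for MIR183 and MIR96, 8.43 and 4.72 for MIR182). H3K27ac and CTCF were called there in replicate 2 and not in replicate 1, at 5.26 and 6.75 for MIR183. Among 7 genes of striated muscle miRNAs, MIR206, MIR133B, MIR208B and MIR499 had no peak of any kind, and neither MYH7 nor MYH7B, the hosts of MIR208B and MIR499, had a peak at its TSS. MIR1 had H3K4me3 of 35.5 and 17.3 and H3K27ac of 10.4 and 12.4, with the TSS of another gene in its window. MIR133A-1 had H3K27ac of 8.47 and 11.2, and H3K4me3 of 3.55 in replicate 1 alone. MIR122 had no histone peak, and a CTCF peak of 3.72 and 4.67. MIR205 and MIR429, the epithelial members, had no histone peak that was present in both replicates, and had CTCF of 36 and 35 and of 18.5 and 18.9. Both histone marks were also found in both replicates at MIR150-1 of lymphocytes (H3K4me3 of 47.2 and 32.4, H3K27ac of 16.7 and 20.1), at MIR192 and MIR194A of gut and kidney (8.55 and 6.69, and 7.63 and 5.92) and at MIR216-1 of the pancreas (6.83 and 3.67, and 4.97 and 4.84). MIR150-1 had the TSS of another gene in its window. No member was on the pluripotent or endothelial lists.

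**Figure D4:**
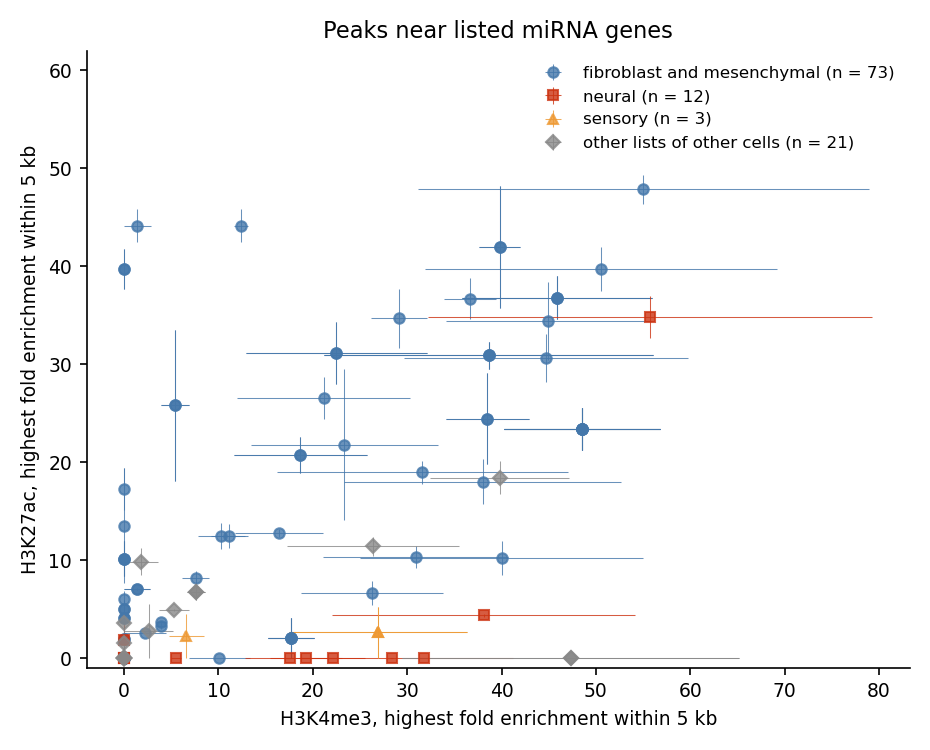
Highest fold enrichment of an H3K27ac peak (vertical axis) against that of an H3K4me3 peak (horizontal axis) within 5 kb of the listed miRNA genes; points are means of the 2 replicates, bars run from one replicate to the other, and a library without a peak counts as 0. Members that share their peaks fall on 1 point, and 6 of the 12 neural members lie at 0 for H3K27ac with H3K4me3 in both replicates.

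The largest runs of neighbouring members were the miR-17 cluster, the miR-106a cluster and the MIR450 run, with 6, 6 and 4 members. The 6 members of the miR-17 cluster, which promotes cell proliferation, all had H3K4me3 of 56.8 and 40.3, H3K27ac of 21.2 and 25.5 and CTCF of 26.1 and 29.4. The related miR-106a cluster, with the same seeds on chromosome X, had H3K4me3 of 20.1 and 15.3, an H3K27ac peak of 4.06 in replicate 2 and none in replicate 1, and no CTCF peak. Read with the sequences above, the seeds of miR-17, miR-19 and miR-92a are thus encoded at a locus with all 3 kinds of peak and at one with H3K4me3 alone in both replicates. MIR450B, MIR450A, MIR450C and MIR542, also on chromosome X, had H3K27ac peaks of up to 10.4 and 13.1 and no CTCF. H3K4me3 peaks of up to 26 and 14.4 were near all 4 in replicate 1 and near 3 of them in replicate 2.

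Identical mature sequences came from 25 groups of loci, and 18 of these groups had different combinations of the 3 marks at their loci. H3K4me3 was at some loci and not at others in 9 groups, H3K27ac in 10 and CTCF in 11. Members in general also differed: the commonest combination, no kind of peak in both replicates, held 35.2% of the 307. How often unrelated members differ was not counted, so the 18 groups have no baseline. MIR29B-2 had all 3 kinds of peak, whereas MIR29B-1, which encodes the same miR-29b, had H3K27ac alone. MIR16-1, in SMC4, had both histone marks, and MIR16-2 had neither mark in more than 1 replicate. Both copies of miR-365 and both of miR-199a had both histone marks, and both copies of miR-128 and of miR-30c had no kind of peak in both replicates. Let-7 was the largest seed family, with GAGGUAG at 10 loci, of which 6 had H3K4me3 and 8 H3K27ac in both replicates. The miR-30 seed, GUAAACA, was at 6 loci, with H3K4me3 in both replicates at 0 and H3K27ac at 2. The reads were filtered for unique mapping, which limits what can be called at near-identical hairpins.

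The strongest CTCF peaks were near MIR137 (70.2 and 65.7), MIR124A-1 (54.6 and 64.6), MIR216-1 (56.2 and 56.4), MIR9803 (62.8 and 48.1) and MIR181C (40.8 and 62.4). The bases around a pair of these summits are shown because they hold letters of the known CTCF core, AGGGGGC or AGGTGGC, searched on both strands and capitalised on the plus strand of Sscrofa11.1. They lie at chr4:119788753-119788853 upstream of MIR137 and at chr2:65275607-65275707 downstream of MIR181C, where the core is on the minus strand.
MIR137 site: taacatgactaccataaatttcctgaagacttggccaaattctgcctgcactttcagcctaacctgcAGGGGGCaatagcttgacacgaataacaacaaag
MIR181C site: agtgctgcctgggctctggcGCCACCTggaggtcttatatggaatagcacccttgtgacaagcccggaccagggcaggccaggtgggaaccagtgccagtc

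Within 50 bp of the summit, either core was present at 32% of the 97 CTCF peaks near members in replicate 1 and at 29.9% of 107 in replicate 2. The shares over all CTCF peaks were 28.7% and 28.4%, and at 1 kb from the same summits 3.32% and 3.37%. Peaks near miRNA genes thus held these letters about as often as other CTCF peaks. Other forms of the core were not searched, so a site without a match may hold one of those. Of the 7 hairpins under a CTCF peak in both replicates, MIR9836 in RTKN2 had 39.7 and 40.5 and MIR148B in COPZ1 had 40 and 36.3.

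On chromosome X, CTCF was near 8.11% ± 0 of 37 members, against 34.6% ± 2.36 of 270 on the autosomes. The hairpin lay under an H3K4me3 peak in both replicates for 0% and 24.8% of them. Genome windows of chromosome X also had fewer peaks, with means of 10.1% against 16.8% for CTCF and 8.57% against 17.3% for H3K4me3. Within 5 kb, intergenic members on chromosome X were closer to those on the autosomes for the histone marks, but not for CTCF. H3K4me3 was near 55.9% ± 4.16 of 17 against 61.4% ± 1.24 of 114, and H3K27ac near 55.9% ± 20.8 against 59.2% ± 4.34. CTCF was near 11.8% ± 0 against 43.4% ± 3.1. Of intragenic members, 15% ± 0 of 20 on chromosome X had H3K4me3, against 38.8% ± 0.453 of 156 on the autosomes. Their H3K27ac shares were 17.5% ± 3.54 and 53.2% ± 0. The intergenic X members with H3K4me3, 10 and 9 in replicates 1 and 2, all belonged to the miR-106a cluster (6 and 6) or the MIR450 run (4 and 3). The H3K4me3 share of intergenic X members therefore rests on few loci. The number of X chromosomes in these cells is not given in the sources used here.

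The split by the number in the symbol, which for pig miRNAs roughly follows the order of discovery, separated the intergenic members. Of 34 intergenic members with a number above 4000, 32.4% ± 0 had H3K4me3, against 70.6% ± 0.729 of the other 97. For intragenic members the shares were 34.7% ± 0 of 49 and 36.6% ± 0.557 of 127. No peak of any kind was found near 16 of the 34 and 13 of the 97. MIR9828-1, MIR9828-2 and MIR9828-3, a run on chromosome 12 with 1 mature sequence, were among those without a peak.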

How the data were processed

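Peak lists of 6 ChIP-seq libraries were used, and the 2 input libraries were not analysed here. The submitters' notes name Bowtie2, MACS2 and Sscrofa11.1. By the methods, alignments had to be unique at both ends of a fragment, Picard marked the duplicates that were dropped, and narrow peaks were called library by library. The deposited lists hold the fold enrichment of a peak (its ratio to the control), the −log10 of its p-value and q-value, its summit position and an integer score, all computed by the authors. Per library the largest q-value listed was 0.0432 to 0.0499, above the limit that the methods state, and no peak was dropped for it.

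A member was intragenic when its whole span lay in a protein-coding, lncRNA or other longer gene. Its window was the hairpin with 5 kb on each side, and a peak counted with an overlap of at least 1 bp. The fold enrichment of a member is that of the strongest peak in its window, except where a peak over the hairpin is named. A run joins members closer than 10 kb. Genome windows of 10080 bp tile chromosomes 1 to 18 and X, and a gap in the assembly counts as a window without a peak. Shares are given per replicate and as mean ± SD over replicates. No test was run, since 2 replicates against 2 cannot pass a threshold in a permutation test. The SD covers the replicates only, and the uncertainty of a share over genes was not estimated.

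The rule for named genes took a list of fibroblast miRNAs, lists for other cells, the 5 strongest windows for each antibody, the 10 strongest H3K4me3 peaks over a hairpin and the 3 largest runs; members outside it were named after their values were seen. The members and lists were chosen with earlier results of these data known. Mature positions come from the RefSeq annotation and their bases from the Sscrofa11.1 genome. Python 3.11.15 with NumPy 2.4.6, pandas 2.3.3, pysam 0.24.0 and matplotlib 3.10.9 was used, and the overlap code was tested on simulated peaks. Alternatives were other windows, stricter or shared peaks, hosts on the same strand, 1 member per run or host, other starts, and leaving out a replicate. The closing section gives their effect.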

Additional observations from a re-analysis of the deposited data

How the results depend on the processing

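The difference between intragenic and intergenic members in H3K4me3 kept its direction under the alternatives tried except 1, the members with a symbol number above 4000. Against −24.6 percentage points, it was −15.8 with a window of 1 kb, −22.2 with 10 kb, −22.7 with a −log10 q-value of at least 5, −23.1 with peaks that overlapped one of the other replicate, −28.3 with hosts on the same strand, −19.9 with 1 member per run, and, in alternatives chosen after seeing the data, −30.2 with no TSS in the window and −22.6 on autosomes. For members with a symbol number above 4000, also chosen after seeing the data, all 3 differences reversed, to 2.34 for H3K4me3, 11.6 for H3K27ac and 0.06 for CTCF, and for the others they were −34, −17 and −18.6. For CTCF it was −13.7, and it reversed to 0.889 with a window of 1 kb. It was −10.1 with 10 kb, −10.9 with 1 member per run, −14.8 with no TSS in the window and −15.2 on autosomes. For H3K27ac it was −9.63, and the alternatives other than the symbol number stayed within 1 SD between replicates (6.88). Leaving out 1 replicate gave −24.5 to −24.7 for H3K4me3, −4.77 to −14.5 for H3K27ac and −13 to −14.5 for CTCF, and 79% for the host TSS in either case. H3K4me3 at the host TSS was 83.8% within 5 kb, 87.5% at any annotated transcript start, 78.7% with the stricter q-value, 77.7% for hosts on the same strand and 78.3% with each host once. The cause of these shifts was not tested. The differences between classes were taken within each library, so they are paired by replicate, and no test was fitted with or without a replicate block. The lists give no counts, so depth sets an unknown limit on members without a peak.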
